A study of Mus musculus with 6 samples.

Results

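The genes described here encode the enzymes that write, oxidise and excise cytosine methylation, with the cytosolic and mitochondrial enzymes that make a cosubstrate of the oxidation step. They were chosen by name: Tet1, Tet2, Tet3, Dnmt1, Dnmt3a, Dnmt3b, Idh1, Idh2 and Tdg. All 9 were found among the 21851 genes of the deposited tables, and all 9 passed the filter on low values (at least 1 FPKM in at least 3 libraries), which left 10676 genes for testing. RNA was sequenced from bone marrow cells sorted as LT-HSCs (long-term haematopoietic stem cells) from wild-type (WT) mice that had received a high cholesterol diet (HCD, 3 libraries) or a control diet (CD, 3 libraries) for 3 months. The sort took lineage-negative cells positive for c-Kit and Sca1 and negative for CD34 and CD135. The labels give neither strain, age nor pooling of animals. Nor do they say that each library came from a separate mouse, so a p-value here reflects the spread among these libraries alone, which may be technical.

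DNA methyltransferases add a methyl group to cytosine, mostly at CpG sites. Dnmt1 copies the pattern onto the new strand after replication, and Dnmt3a and Dnmt3b set new marks. Tet dioxygenases oxidise the methyl group in steps that use 2-oxoglutarate, and thymine DNA glycosylase (Tdg) removes the more oxidised bases so that repair can put back plain cytosine. Isocitrate dehydrogenases 1 and 2 (Idh1, Idh2) make 2-oxoglutarate. In human blood, DNMT3A and TET2 are among the genes most often mutated in clonal haematopoiesis, and mutant IDH enzymes make a metabolite that inhibits TET proteins.

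Depth was similar across libraries, with 10549 to 10675 genes at 1 FPKM or more in each. The libraries held transcripts of Kit (118 ± 3.94 FPKM in HCD and 122 ± 0.84 FPKM in CD, SD, n = 3 each) and Hlf (48.8 ± 1.76 in HCD and 56.2 ± 0.76 in CD), both genes of haematopoietic stem and progenitor cells. Against the gate, Cd34 stood at 458 ± 17.0 FPKM in HCD and 471 ± 15.4 in CD, and Flt3, which encodes CD135, at 104 ± 4.12 in HCD and 114 ± 1.19 in CD. The stem cell marker Slamf1 was low, at 3.41 ± 0.27 FPKM in HCD and 1.79 ± 0.47 in CD. HCD replicate 2 stood apart from the other HCD libraries for long transcripts, which touches the Tet genes below.

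Setting HCD against CD asks whether transcripts of the methylation machinery differ with the diet. Dnmt1 and Dnmt3a were lower in HCD and Idh1 was higher, while the other 6 genes did not pass the test. The test was limma on log2(FPKM + 1) over all tested genes, two-sided, with Benjamini-Hochberg adjustment and a threshold of 0.05. Thus 3 of 9 genes passed, 1 higher and 2 lower, where 13.9% of all tested genes did. The count was 1, Idh1, with the trend against transcript length removed or without CD replicate 1, 2 or 3 or HCD replicate 1, and 2 without HCD replicate 3. The HCD and CD values did not overlap in 5 of the 9, namely Dnmt1, Dnmt3a and Tet3, which were lower, and Idh1 and Tdg, which were higher. Groups without overlap were found in 37.7% of all tested genes, with HCD lower in 22.7% and higher in 15.0%.

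**Figure D1:**
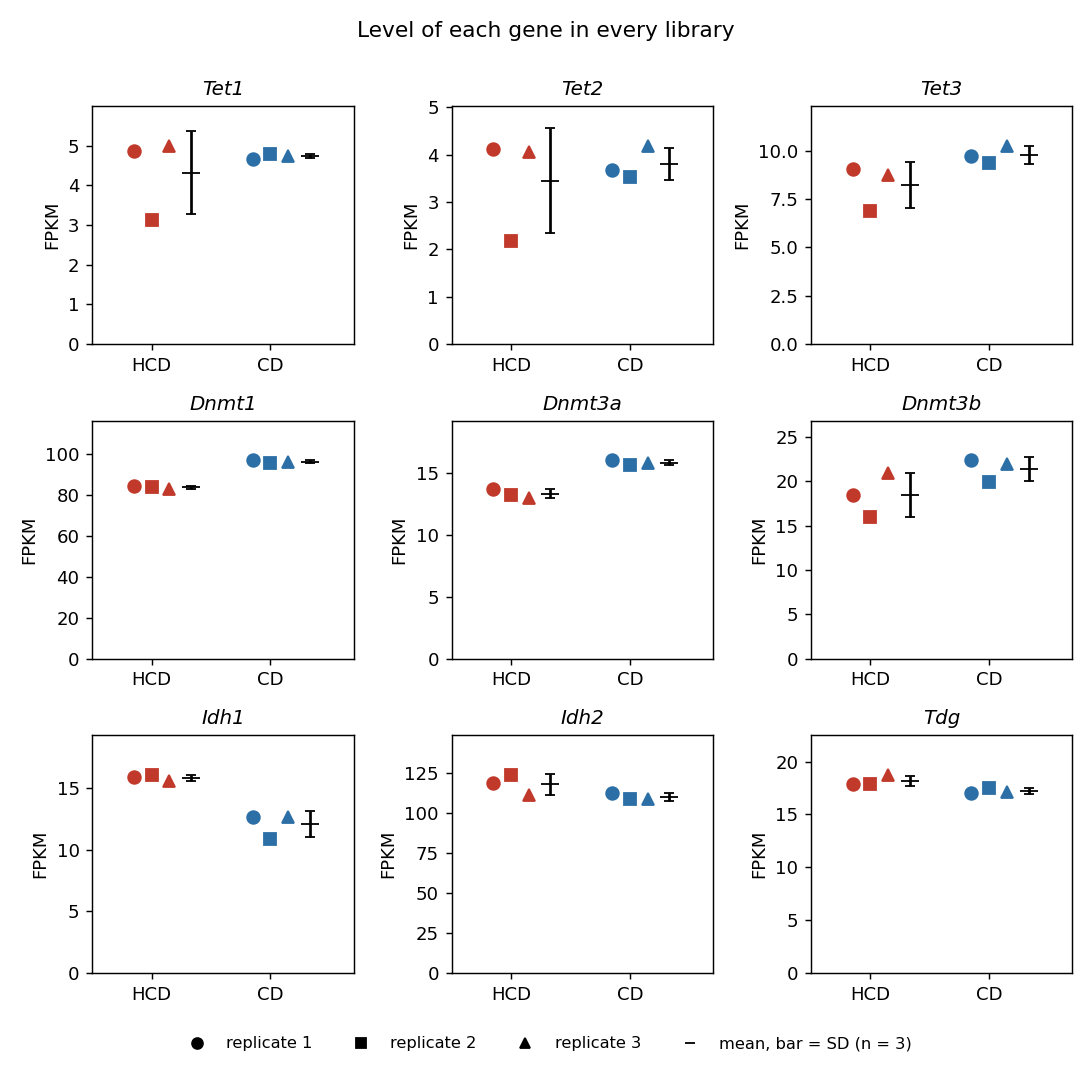
FPKM (vertical axes, from 0) of the 9 genes in each of the 3 HCD and 3 CD libraries, with symbols for replicate numbers and the mean with its SD beside each group. Dnmt1 and Dnmt3a lie lower and Idh1 higher in every HCD library, and HCD replicate 2 is the lowest library for Tet1, Tet2, Tet3 and Dnmt3b.

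Among the methyltransferases, Dnmt1 was by far the most abundant transcript. Dnmt1 (chromosome 9, 20907209 to 20959888, minus strand, GRCm38) had 84.0, 83.9 and 82.8 FPKM in HCD replicates 1 to 3, against 96.8, 95.5 and 96.0 FPKM in CD replicates 1 to 3. The groups were far apart beside the spread within them: all HCD libraries lay between 82.8 and 84.0 and all CD libraries between 95.5 and 96.8. The ratio of means was 0.87 and the log2 change -0.20 (SE 0.04, limma adjusted p = 0.0131). Between 9246 and 10937 reads per library lay behind these values, taking the longest annotated transcript of 5870 bases.

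Dnmt1 acts at the replication fork, so its level was set beside those of S phase genes. The summed level of 10 S phase genes was 1112, 1123 and 1100 FPKM in HCD replicates 1 to 3, against 1258, 1264 and 1255 FPKM in CD replicates 1 to 3. As a percentage of that sum, Dnmt1 was 7.56, 7.47 and 7.52 in HCD and 7.69, 7.56 and 7.65 in CD. These percentages lay close together, and HCD replicate 1 and CD replicate 2 were almost equal. Of the 10 genes, 0 were higher and 6 lower (Mcm2, Mcm3, Mcm4, Mcm5, Mcm6 and Pcna), where 7.66% of all tested genes were lower. Mcm7, Rrm2, Gins2 and Cdc6 did not pass. The median log2 change was -0.19, where that of all tested genes was -0.03. The count of 6 became 4 with the trend against transcript length removed and with TMM factors. Leaving out 1 library gave 0 without CD replicate 1 or 2, 1 without CD replicate 3, 2 without HCD replicate 1 and 5 or 6 without HCD replicate 3 or 2. Whether fewer cells in S phase or less RNA per cell lies behind such a difference cannot be told apart in bulk libraries.

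E2F factors switch on S phase genes, so promoter windows were searched for the E2F-type letters TTTCCCGC, TTTCGCGC, TTTGGCGC or TTTGCCGC on both strands. Each window in the RefSeq table (GRCm38.p6) runs from 250 bases before a transcription start to 50 after it. Of the 14 windows of the 9 genes, only 1 held a match, the Dnmt1 window on chromosome 9 from 20952574 to 20952873, which held 2. Such a match stood in 2.26% of all 32851 windows, and in a window of 5 of the 8 S phase genes that had one (Cdc6, Mcm3, Mcm5, Mcm6 and Mcm7), where 2.6% of all genes had one. A match is a description of letters and not a bound site. Each of the letter strings holds a CpG, and the matching Dnmt1 window had 33 CpG where the median of all windows was 7. The share of matches among windows as rich in CpG was not computed. One upstream stretch per gene, for Dnmt1 and for S phase genes beside it, is given 5′ to 3′ in the direction of the gene, with the motif or its reverse complement in capitals. The second Dnmt1 match lies 33 bases after the start and overlaps no other match, whereas the Mcm5 match shown overlaps a further one that begins 4 bases on.
Dnmt1, chr9:20952809-20952868, minus strand: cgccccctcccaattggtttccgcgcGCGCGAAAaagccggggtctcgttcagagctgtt
Mcm5, chr8:75109330-75109389, plus strand: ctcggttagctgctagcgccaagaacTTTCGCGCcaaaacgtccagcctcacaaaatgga
Mcm6, chr1:128359778-128359837, minus strand: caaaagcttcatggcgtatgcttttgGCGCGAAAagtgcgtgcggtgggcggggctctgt
Cdc6, chr11:98907987-98908046, plus strand: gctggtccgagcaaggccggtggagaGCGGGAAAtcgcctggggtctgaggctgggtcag
The Dnmt1 letters GCGCGAAA stand in Mcm6 too and are the reverse complement of the TTTCGCGC seen in Mcm5. Further upstream matches, not printed, begin at -110 (overlapping the one shown) and -47 from the start in Mcm6 and at -165 in Mcm7. Mcm5 had 111 ± 4.11 FPKM in HCD and 130 ± 0.41 in CD, Mcm6 137 ± 6.39 in HCD and 165 ± 1.48 in CD, and Cdc6, which did not pass, 9.92 ± 0.91 in HCD and 11.7 ± 0.76 in CD (SD, n = 3 each).

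Dnmt3a (chromosome 12, 3806007 to 3914443, plus strand) fell by about as much as Dnmt1 from a lower level. It had 13.7, 13.2 and 13.0 FPKM in HCD replicates 1 to 3, against 16.0, 15.6 and 15.8 FPKM in CD replicates 1 to 3. No HCD library reached the lowest CD library. The ratio of means was 0.84 and the log2 change -0.23 (SE 0.05, limma adjusted p = 0.0258). Dnmt1 was 6.14, 6.35 and 6.37 times Dnmt3a in HCD and 6.05, 6.12 and 6.08 times in CD.

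Dnmt3b (chromosome 2, 153649450 to 153687730, plus strand), the other de novo enzyme gene, had 18.4, 15.9 and 20.9 FPKM in HCD and 22.4, 19.9 and 21.9 FPKM in CD. The groups overlapped, since HCD replicate 3 lay above CD replicate 2. With a log2 change of -0.21, close to that of Dnmt3a, it did not pass (SE 0.09, 95% interval -0.43 to 0.00, limma adjusted p = 0.168). Dnmt1 made up 70.9 to 74.2% of the summed methyltransferase FPKM in HCD and 71.6 to 72.9% in CD. Dnmt3a made up 11.1 to 11.8% in HCD and 11.8 to 11.9% in CD. The sum of all 3 was 115 ± 1.97 FPKM in HCD and 133 ± 2.09 in CD, so the level of the family was lower while its makeup shifted by little. Dnmt3l, the cofactor of the de novo enzymes that works mainly in germ cells and early embryos, was at 0.11 ± 0.04 FPKM in HCD and 0.09 ± 0.05 in CD and was not tested.

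The falls of Dnmt1 and Dnmt3a were equal in size without HCD replicate 2 (log2 change -0.20 and -0.23), but both calls ended when the trend of each library against transcript length was removed (adjusted p = 0.124 and 0.380, log2 change -0.13 and -0.09). Leaving out CD replicate 1, 2 or 3 or HCD replicate 1 also ended both calls (adjusted p from 0.0516 to 0.106), as did leaving out HCD replicate 3 for Dnmt3a (0.0676).

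The Tet genes were the least abundant of the set, and none passed the test. Tet3 (chromosome 6, 83362373 to 83459084, minus strand), the highest of them, had 9.06, 6.87 and 8.76 FPKM in HCD replicates 1 to 3, against 9.73, 9.38 and 10.3 FPKM in CD replicates 1 to 3. All HCD libraries lay below all CD libraries, and the log2 change was -0.23 (SE 0.10, 95% interval -0.46 to -0.01, limma adjusted p = 0.153). Tet1 (chromosome 10, 62804570 to 62908996, minus strand) had 4.86, 3.12 and 4.997 FPKM in HCD and 4.68, 4.79 and 4.75 FPKM in CD. Here HCD replicates 1 and 3 lay above every CD library and HCD replicate 2 below them all. The log2 change of Tet1 was -0.13 (SE 0.14, 95% interval -0.45 to 0.19, limma adjusted p = 0.570).

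Tet2 (chromosome 3, 133463679 to 133545139, minus strand), the family member most studied in blood stem cells, was also lowest in HCD replicate 2. It had 4.12, 2.17 and 4.05 FPKM in HCD replicates 1 to 3, against 3.68, 3.53 and 4.18 FPKM in CD replicates 1 to 3. HCD replicate 2 was well below the other 5 libraries, which overlapped. Its log2 change was -0.14 (SE 0.18, 95% interval -0.55 to 0.26, limma adjusted p = 0.622). About 394 to 753 reads per library lay behind Tet2, with the longest transcript of 9179 bases, and 469 to 732 behind Idh1. These were the lowest ranges of the 9 genes. Without HCD replicate 2 the change turned to 0.047 for Tet1 and 0.085 for Tet2 (adjusted p = 0.684 and 0.519), and that of Tet3 was -0.12 (limma adjusted p = 0.200). Together the Tet genes summed to 18.05, 12.2 and 17.8 FPKM in HCD and 18.1, 17.7 and 19.195 FPKM in CD.

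**Figure D2:**
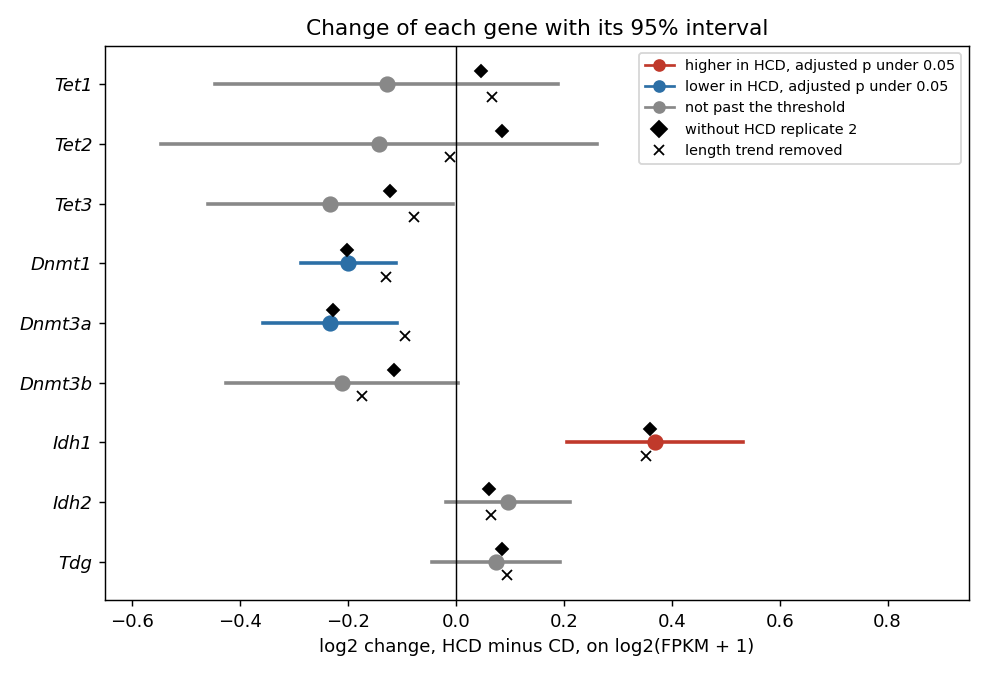
Log2 change of HCD minus CD on log2(FPKM + 1) for the 9 genes, with 95% intervals from limma as horizontal lines, diamonds for the value without HCD replicate 2 and crosses for the value with the length trend removed. Idh1 keeps its change at 0.36 and 0.35 in both, Dnmt3a moves from -0.23 to -0.09 with the length trend removed, and Tet1 and Tet2 sit above 0 without HCD replicate 2.

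All 3 Tet transcripts and that of Dnmt3a are long, with longest annotated forms of 9179 to 14369 bases, and length moved with the difference between HCD replicate 2 and the other HCD libraries. Over 549 tested genes with transcripts of at least 8000 bases, HCD replicate 2 minus the mean of HCD replicates 1 and 3 had a median of -0.16 in log2(FPKM + 1). For 2121 genes with transcripts under 2000 bases it was 0.06. The same difference was -0.53 for Tet1, -0.68 for Tet2 and -0.33 for Tet3, all further down than the median of their length class. Dnmt3a, at 9685 bases, differed by -0.01, and the shorter Dnmt3b, at 4320 bases, by -0.29. The length trend was therefore not shared evenly by these genes. A weaker trend was also seen in CD replicate 2 minus the mean of CD replicates 1 and 3. Its median was 0.02 under 2000 bases and -0.04 at 8000 bases or more. Spearman correlations with length were -0.13 for this difference and -0.28 for that of HCD replicate 2. In the class of at least 8000 bases, the median of HCD minus CD was -0.16 with all libraries and -0.10 without HCD replicate 2, against -0.23 for Dnmt3a in both. The part of transcript length in these differences was not tested.

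**Figure D3:**
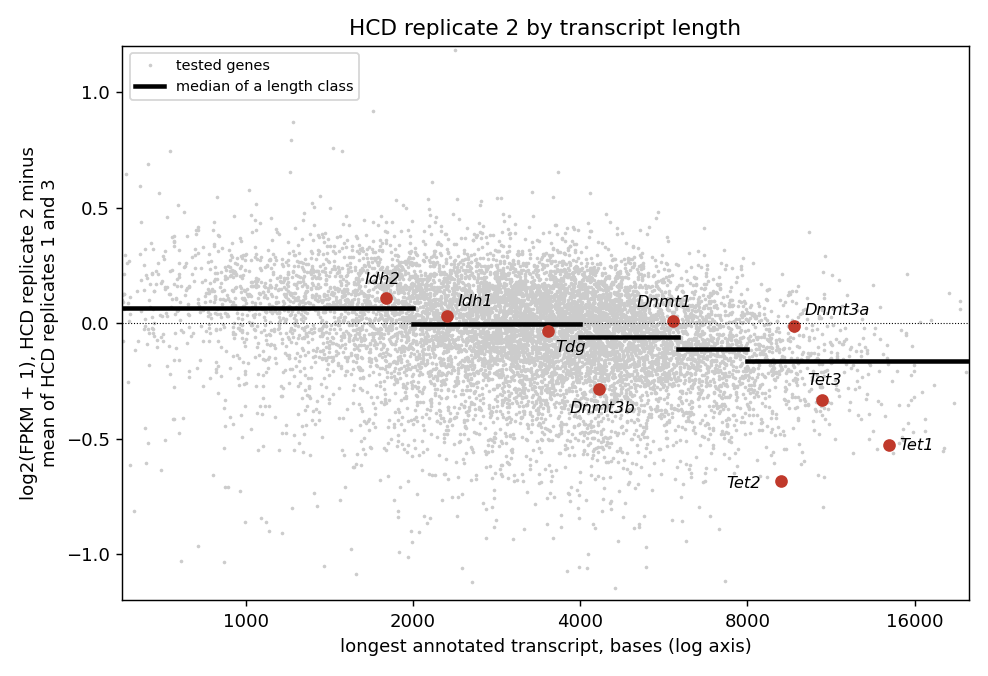
Difference in log2(FPKM + 1) between HCD replicate 2 and the mean of HCD replicates 1 and 3 (vertical axis) against the longest annotated transcript in bases (log axis) for tested genes, with black lines for the median of each length class and red points for the 9 genes. The medians run from 0.06 for the shortest class to -0.16 for the longest, and Tet1, Tet2 and Tet3 lie below them.

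Tdg (chromosome 10, 82629828 to 82650799, plus strand) had 17.9, 17.9 and 18.7 FPKM in HCD replicates 1 to 3, against 17.0, 17.5 and 17.1 FPKM in CD replicates 1 to 3. Every HCD library was above every CD library, yet by so little that the test was not passed (log2 change 0.07, SE 0.05, 95% interval -0.04 to 0.19, limma adjusted p = 0.363).

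Idh1 (chromosome 1, 65158616 to 65186500, minus strand), which encodes the cytosolic and peroxisomal enzyme, changed the most of the 9 genes. It had 15.9, 16.0 and 15.5 FPKM in HCD replicates 1 to 3, against 12.7, 10.8 and 12.7 FPKM in CD replicates 1 to 3. All HCD libraries lay above all CD libraries, and CD replicate 2 was lower than the other CD libraries. The ratio of means was 1.31 and the log2 change 0.37 (SE 0.07, 95% interval 0.21 to 0.53, limma adjusted p = 0.0132). Idh1 passed under each of the 15 alternatives run, with an adjusted p of at most 0.0498 and a log2 change from 0.30 to 0.40. The sterol regulatory element letters TCACNCCAC were searched on both strands. The reason was that IDH1 is known as a target of sterol regulatory element binding proteins in human cells. These letters matched in 0 of the 14 windows and in 1.24% of all windows. With so low a share among all windows, 0 of 14 cannot tell whether Idh1 is such a target. Other forms of the element were not searched, and sterol control of Idh1 was not tested.

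Idh2 (chromosome 7, 80094846 to 80115392, minus strand), the mitochondrial counterpart, was the most abundant of the 9 transcripts. It had 119, 124 and 111 FPKM in HCD and 113, 109 and 109 FPKM in CD. HCD replicate 3 lay within the CD range, and the gene did not pass (log2 change 0.10, SE 0.05, 95% interval -0.02 to 0.21, limma adjusted p = 0.227). Idh1 made up 11.8, 11.5 and 12.3% of the summed FPKM of both genes in HCD and 10.1, 9.02 and 10.4% in CD, so its share was higher in every HCD library.

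FPKM is scaled by transcript length, so levels were set side by side. The order is approximate, since the annotation behind the lengths is not given. Long transcripts, the Tet genes among them, also read lower in HCD replicate 2. Idh2 and Dnmt1 stood above 95.3% and 93.5% of tested genes, in that order, in their mean over 6 libraries. Dnmt3b, Tdg, Dnmt3a and Idh1 followed at percentiles from 52.9 to 64.7, and Tet3, Tet1 and Tet2 came last at 38.8, 20.9 and 16.9. Dnmt3b lay above Tdg in every CD library and in HCD replicates 1 and 3, but below it in HCD replicate 2 (15.9 against 17.9 FPKM). Tet1 lay above Tet2 in each of the 6 libraries, although the ranges of their values overlapped. The order of Idh1 and Dnmt3a differed between diets, with Idh1 above Dnmt3a in each HCD library and below it in each CD library.

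For the genes that passed, the tested genes nearest in pattern were found by the root mean square difference of gene-centred log2(FPKM + 1) over 6 libraries. Nearest to Dnmt1 were Sf3b3, Ibtk and Arih1, at 0.01 each. Ddx18, Smyd5 and Sfmbt1 were nearest to Dnmt3a, also at 0.01. C1qtnf6, Frat2 and Ypel3 were nearest to Idh1, at 0.03 to 0.04. With so many genes and so few libraries such neighbours are a description only.

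Of 8 partners of maintenance methylation, 5 fell and 0 rose, while Uhrf2, Usp7 and Cdca7l did not pass. The list had a median log2 change of -0.22 where that of all tested genes was -0.03 and 7.66% of them fell. Uhrf1, which brings Dnmt1 to half-methylated CpG sites, had 63.6, 58.9 and 67.0 FPKM in HCD replicates 1 to 3, against 78.5, 77.6 and 80.2 FPKM in CD replicates 1 to 3 (log2 change -0.32, SE 0.05, limma adjusted p = 0.00868). All HCD libraries were lower. Hells, a chromatin remodeller needed for methylation, had 20.6 ± 1.17 FPKM in HCD and 25.0 ± 1.58 in CD, and its activator Cdca7 101 ± 4.27 in HCD and 116 ± 1.36 in CD. The fork genes Pcna (305 ± 3.93 FPKM in HCD and 353 ± 6.30 in CD) and Lig1 (71.3 ± 4.59 in HCD and 83.4 ± 2.42 in CD) also fell, and Pcna is counted among the S phase genes too. Dnmt1 was 1.23 to 1.42 times Uhrf1 in HCD and 1.197 to 1.23 times in CD. The count of 5 was 3 with TMM factors, without the filter or with the length trend removed, 6 without HCD replicate 2, 3 without HCD replicate 3 and 1 without any other library.

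Among the methyl donor enzymes, Mat2a fell the most. Mat2a, which makes S-adenosylmethionine, the methyl donor of every Dnmt reaction, had 49.96, 50.5 and 48.5 FPKM in HCD replicates 1 to 3, against 71.8, 70.5 and 74.3 FPKM in CD replicates 1 to 3. The gap between the groups was many times the spread within them. The ratio of means was 0.69 and the log2 change -0.53 (SE 0.04, limma adjusted p = 0.000378), and the call was kept under each of the 15 alternatives, with an adjusted p of at most 0.00564. Its regulatory partner Mat2b did not pass, at 45.8 ± 2.91 FPKM in HCD and 41.6 ± 2.21 in CD. Of the 9 tested genes in this list, 4 fell and 0 rose, where 7.66% of all tested genes fell. The list had a median log2 change of -0.11, where that of all tested genes was -0.03. The others that fell were Mtap, which salvages methylthioadenosine (28.4 ± 2.02 FPKM in HCD and 35.2 ± 0.62 in CD), Mtr, the methionine synthase gene (17.4 ± 0.44 in HCD and 20.3 ± 0.75 in CD), and Ahcyl2, related to adenosylhomocysteinase (3.14 ± 0.26 in HCD and 4.22 ± 0.08 in CD). The count was 2 with the length trend removed, where Mtr and Ahcyl2 no longer passed. It was 1 without CD replicate 1, 2 or 3 and 2 without HCD replicate 1 or 3.

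Base excision repair genes had 0 rises and 3 falls among 9 tested, where 7.66% of all tested genes fell. Their median log2 change was -0.17, where that of all tested genes was -0.03. Ung, a uracil glycosylase that starts repair in replicating DNA as Tdg does at other bases, had 18.5 ± 2.44 FPKM in HCD and 24.3 ± 0.85 in CD. Polb, the gap-filling polymerase of base excision repair, had 10.97 ± 0.62 FPKM in HCD and 14.1 ± 1.13 in CD. Parp1, a sensor of strand breaks, had 113 ± 3.67 FPKM in HCD and 128 ± 2.52 in CD. The 3 falls were 5 without HCD replicate 2, 2 with the length trend removed or with TMM factors, 1 without CD replicate 3 or HCD replicate 3 and 0 without CD replicate 1, CD replicate 2 or HCD replicate 1.

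The list of 2-oxoglutarate enzymes held further enzymes of this metabolite and, beyond those, genes of succinate dehydrogenase and fumarase. Of its 15 tested genes, 0 rose and 0 fell past the threshold by limma, where 13.9% of all tested genes passed. Their median log2 change was -0.02. At an unadjusted p under 0.05 stood 2 of them, Idh3a (limma adjusted p = 0.120, 47.0 ± 3.92 FPKM in HCD and 52.6 ± 1.42 in CD) and Idh3g (limma adjusted p = 0.153, 126 ± 6.28 in HCD and 114 ± 6.88 in CD), which encode subunits of 1 enzyme and went in opposite directions. Nor did any of the 8 methyl-CpG readers pass (0 higher, 0 lower, and 0 at an unadjusted p under 0.05 by limma). Of these, Mbd4, a glycosylase that also binds methylated CpG sites, had a log2 change of 0.12 and Mbd3, a subunit of the NuRD complex, one of -0.08. Without HCD replicate 2, 1 reader was higher and 1 lower, and 1 of the 2-oxoglutarate enzymes was lower without HCD replicate 2 or 3. Among 8 tested partners of Tet and Dnmt proteins, 0 rose and 1 fell, where 7.66% of all tested genes fell. It was Setdb1, a histone H3 lysine methyltransferase (18.4 ± 2.01 FPKM in HCD and 22.9 ± 0.51 in CD, limma adjusted p = 0.0355). That call ended without CD replicate 1, 2 or 3 or HCD replicate 3 and without the filter. Trdmt1, which resembles the Dnmt proteins in sequence but methylates transfer RNA, was higher, at 3.03, 3.72 and 3.21 FPKM in HCD and 2.19, 2.001 and 2.35 FPKM in CD (log2 change 0.44, SE 0.10, limma adjusted p = 0.0198). All HCD libraries lay above all CD libraries, but leaving out any CD library ended the call (highest adjusted p = 0.0818).

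**Figure D4:**
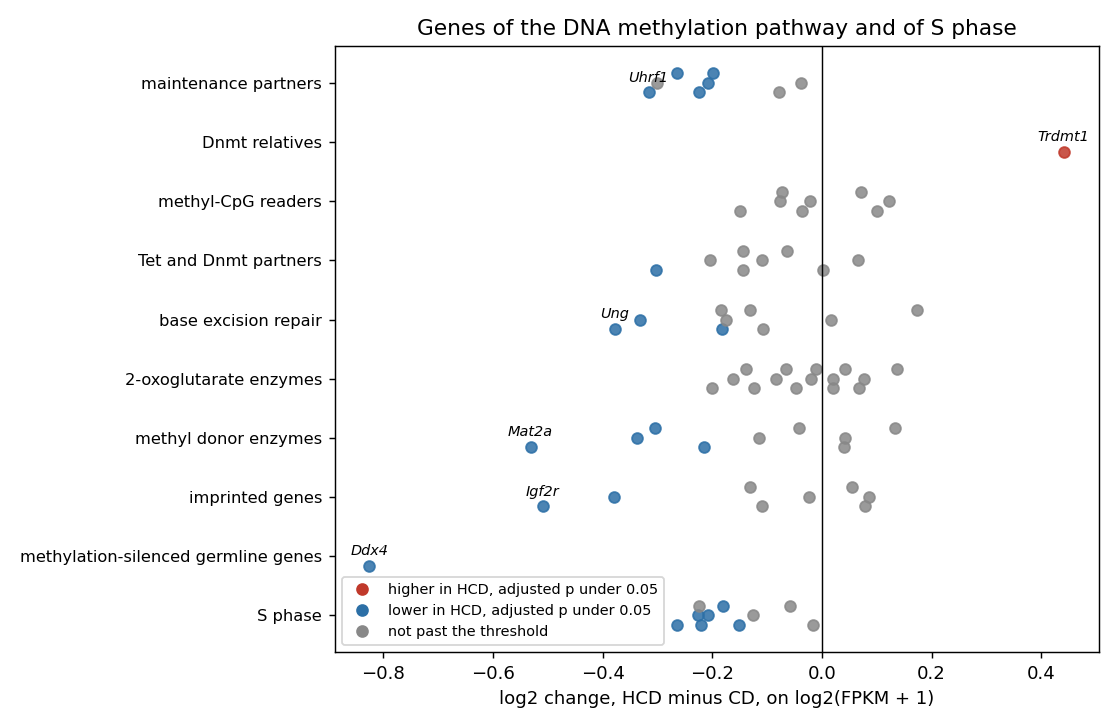
Log2 change of HCD minus CD on log2(FPKM + 1) for each tested gene of 10 lists, with red for genes higher and blue for genes lower in HCD at an adjusted p under 0.05 by limma and grey for the rest. The maintenance partners, base excision repair, methyl donor and S phase rows hold blue points without red ones, and the readers and 2-oxoglutarate enzymes are grey throughout.

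The deposited tables hold no methylation measurement, so transcripts that DNA methylation is known to control were read beside the enzymes. Germline genes silenced by methylation were near 0 in both groups: 13 of 14 did not pass the filter. The exception was Ddx4, an RNA helicase gene used as a germ cell marker, at 2.501, 2.76 and 3.05 FPKM in HCD replicates 1 to 3, against 4.79, 6.53 and 5.80 FPKM in CD replicates 1 to 3. The groups were well apart, with a ratio of means of 0.49 and a log2 change of -0.83 (SE 0.11, limma adjusted p = 0.00337), and the call was kept under each alternative that tested it. Of 20 imprinted genes listed, 8 were tested, 0 rose and 2 fell, where 7.66% of all tested genes fell. Igf2r, a receptor that takes up IGF2, had 2.73, 2.56 and 3.22 FPKM in HCD and 4.42, 4.90 and 4.05 FPKM in CD (limma adjusted p = 0.0136). Grb10, an adaptor of growth factor receptors, had 3.17 ± 0.35 FPKM in HCD and 4.41 ± 0.07 in CD (limma adjusted p = 0.0261). Neither group overlapped for these genes, but both calls ended without CD replicate 1, CD replicate 2 or HCD replicate 1, and that of Grb10 also without CD replicate 3.

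Among markers of other cell types, myeloid progenitor genes were higher in HCD, while lists of other lineages held few tested genes. The summed level of 6 myeloid progenitor genes, led by Mpo, ran from 1610 to 1782 FPKM in HCD and from 869 to 899 in CD. Of these genes 6 of 6 were higher, where 6.28% of all tested genes were. For 6 mature neutrophil genes the sum ran from 38.4 to 46.6 FPKM in HCD and from 11.4 to 11.7 in CD, with 5 of 5 tested higher. Camp and Lcn2 among them passed the filter through the HCD libraries alone, so the filter fixed their direction. Neither was tested when an HCD library was left out, and the 3 genes then tested were higher. Macrophage genes summed to 2.18 to 2.60 FPKM in HCD and 5.68 to 6.14 in CD. Adgre1 of this list was not tested, at 0.45 ± 0.25 FPKM in HCD and 0.40 ± 0.11 in CD. The 3 tested macrophage genes, C1qa, C1qb and Vcam1, were lower but passed the filter through the CD libraries alone, so that none could be tested when a CD library was left out. Erythroid genes summed to 4.61 to 5.81 FPKM in HCD and 4.49 to 6.90 in CD, with 0 of 2 tested past the threshold. B cell genes summed to 2.46 to 3.44 FPKM in HCD and 4.72 to 5.85 in CD, with Igll1 lower among 2 tested. Igll1 too passed the filter through the CD libraries alone and was not tested when one of them was left out. In the T and NK cell list Cd3e was listed at 0 in all libraries, and Cd3g had a mean of 0 FPKM in HCD and 0.03 in CD. Nkg7 was higher, at 136 ± 11.4 FPKM in HCD and 104 ± 2.76 in CD. Without those T cell transcripts beside it, Nkg7 cannot be read as a mark of T cells here. Of 6 G2 and M phase genes 0 rose and 2 fell, Mki67 and Top2a. Of 8 stem cell markers 2 rose and 3 fell, while 0 of these markers passed without CD replicate 1. Among all tested genes 6.28% rose and 7.66% fell. The part of these cell types in the changes of Dnmt1, Dnmt3a and Idh1 was not tested.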

How the data were processed

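RNA of 6 libraries, 3 per diet, was used. Per the labels' protocols, RNA came from a micro column kit and libraries were stranded mRNA libraries. Alignment and quantification tools in the submitters' processing notes are HISAT2, StringTie and, for read trimming, fastp. Builds listed there are mm10 and GRCm38. The sources used here give neither tool versions nor the annotation. The values deposited by the authors were taken as FPKM from their non-whole values and differing sums, since per the file headers only a sample name is given. Of 21878 rows, 27 with a date for a symbol (0.127% of the FPKM) were left out.

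Groups were compared with limma 3.58.1 (R 4.3.3, trend and robust) on log2(FPKM + 1) without covariates, after the filter stated above. Factors by the trimmed mean of M-values (TMM), an alternative scaling, were computed on FPKM, and no count model was fitted. The test was tested on simulated data. A fold change on this scale understates that of low genes. Lengths and positions are from GENCODE vM21, using the longest transcript, and depth was estimated from the steps of low values, of which 35.7 to 42.1% were whole reads within 0.02. Reads per gene are therefore approximate. Counts of genes in lists are descriptions without a set test.

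Named genes are the 9 members, list genes past the threshold or the 3 with the smallest p where none passed, markers and nearest patterns. Some genes that this rule takes are left out of the text, though list counts include them. The members, lists, tests and alternatives were chosen with earlier results of these data known. The alternative that joins the replicate block with the length trend was added after seeing the data. Deviations from the group means had correlations across genes of 0.103, 0.292 and 0.166 for same-numbered libraries, and -0.25 to 0.098 for different-numbered pairs. The value for replicate 1 was close to the highest of the different-numbered pairs, and that for replicate 2 stood out most. Deviations from a mean of 3 libraries are not independent, so these correlations are a weak guide to pairing. The numbers were treated as pairs in an alternative fit only, and no label says what they share.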

Additional observations from a re-analysis of the deposited data

How the results depend on the processing

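Over the alternatives run, the number of tested genes past the threshold stayed within 1.5 times of 1488 except on leaving out single libraries, where its lowest was 435 (CD replicate 1 left out) and its highest 2672 (HCD replicate 2 left out). It was 1397 with TMM factors, where 748 were higher and 649 lower against 670 and 818, and 1318 with the length trend removed (688 higher, 630 lower). Of the 9 genes, 3 passed and 1 to 3 when single libraries were left out. With the length trend removed 1 passed, Idh1, and likewise 1 with the replicate block and the length trend removed together (1 higher, 0 lower). With the replicate block alone 3 passed, and the block ended the call of 0 of the 17 list genes past the threshold. The log2 change of Tet1 turned from -0.13 to 0.068 with the length trend removed, with or without the block, and ranged from -0.22 to 0.047 on leaving out single libraries, highest without HCD replicate 2, and that of Tet2, -0.14 with all libraries, ranged from -0.26 to 0.085, highest without the same library. None of these values passed the test. The cause of these turns was not tested. Of the 17 list genes, 3 (Uhrf1, Mat2a and Ddx4) were past the threshold under every alternative that tested them, 14 were lost on leaving out some library, 5 with the length trend removed and 3 with TMM factors. Leaving out a library leaves fewer samples. The Tet2 and Idh1 values rest on the fewest reads.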
